A study of Mus musculus with 41 samples.

Results

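The clustered protocadherins are cell surface adhesion molecules of the nervous system, encoded in the alpha, beta and gamma gene clusters that lie side by side on mouse chromosome 18. Their expression was followed in 41 RNA-seq libraries of mouse brainstem tumors and neural precursor cultures. Members were chosen by gene symbol alone (Pcdha, Pcdhac, Pcdhb, Pcdhga, Pcdhgb or Pcdhgc followed by a number), which gave 25 of the 34591 entries of the deposited table: Pcdha3 and Pcdha4 of the alpha cluster, Pcdhb1 to Pcdhb22 of the beta cluster and Pcdhga9 of the gamma cluster. The symbol pattern uses no measured value, but the family was chosen with earlier results of these data known.

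Clustered protocadherins act as a barcode for neurons. Each neuron switches on a small set of isoforms by promoter choice, in which the looping proteins CTCF and cohesin and promoter DNA methylation take part, and cells that display matching sets recognise each other, which lets the branches of a neuron avoid themselves. In the alpha and gamma clusters every isoform has its own variable exon, which codes for the extracellular part and is spliced to constant exons shared by the whole cluster, whereas each beta gene is a complete gene in 1 exon. Glial cells and their precursors also express members of the family.

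The tumors carried Nestin-creERT2, H3f3a LSL-K27M-Tag/+ (20 tumors) or H3f3a LSL-WT-Tag/+ (9 tumors), LSL-PDGFRαV544ins and Trp53 flox/flox. In LSL alleles Cre removes a stop cassette, so the tagged histone is made, either the lysine-to-methionine mutant (K27M) or the wild-type protein (WT-Tag), here together with an activated receptor and loss of p53. The cultures were neurospheres, floating aggregates of neural stem and progenitor cells, from the forebrain or hindbrain of e15.5 embryos, grown under neural precursor conditions. They carried Nestin-cre with H3f3a LSL-K27M-Tag/+ or LSL-WT-Tag/+ and neither the receptor nor the Trp53 alleles, with 3 libraries per genotype and region. Every group thus had a tagged H3.3 allele and a Cre driven by Nestin, a gene of neural progenitors. Tumor pieces also hold host cells. How old the mice with tumors were is not stated in the sources used here. Cultures carry an experiment id from 1 to 3, and a letter in their titles joins the 2 regions of a culture. Sex was male for the WT-Tag libraries of experiment 3 and female for all other cultures.

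Values are FPKM (fragments scaled to transcript length and library size), and depth was estimated from the step size of low values, since no counts were used. Relative to the median library, it ran from 0.431 to 1.78 in tumors and from 0.268 to 1.17 in cultures, with a higher median for WT-Tag than for K27M libraries in each setting (1.27 against 0.921 in tumors, 1.08 against 0.798 in forebrain and 1.02 against 0.809 in hindbrain cultures). Whether depth takes part in the differences below was not tested. Lhx2, a forebrain transcription factor, was at 9.11 (K27M) and 6.77 FPKM (WT-Tag) in forebrain cultures, and at 0.022 and 0.084 in those from hindbrain. Of 8 forebrain markers 4 reached a mean of 1 FPKM in forebrain cultures of each genotype. Of 8 hindbrain markers 1 did so in K27M and 4 in WT-Tag hindbrain cultures. The summed hindbrain markers were 3.03 to 3.64 FPKM in K27M hindbrain and 0.124 to 0.189 in K27M forebrain cultures. Hindbrain identity of the K27M cultures thus rests on low values. Sox2, a neural stem cell factor, was between 88.1 and 97.1 in the 4 culture groups, whereas Rbfox3, a marker of mature neurons, was at most 0.160 there and 2.34 and 1.57 in K27M and WT-Tag tumors. WT-Tag tumors 8 and 9 went against their sex labels, with the female-specific RNA Xist at 0.031 in tumor 8 (female by label) and 54.5 in tumor 9 (male by label). Results on tumors were therefore also computed without both.

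The highest level of any member in all 6 groups was that of Pcdhga9. From low to high, its mean was 10.4 ± 2.81 FPKM for K27M tumors (SD, n = 20), 11.4 ± 2.62 for WT-Tag tumors (n = 9), 13.4 ± 1.09 for K27M hindbrain, 14.6 ± 2.45 for K27M forebrain, 16.7 ± 3.04 for WT-Tag forebrain and 17 ± 2.59 for WT-Tag hindbrain cultures (n = 3 each). Tumors were the lowest groups, but neighbours in this order lay apart by less than 1 SD of the more variable group. The identifier of this entry belongs to Pcdhgc4 in GENCODE M21, and that of Pcdha4 to Pcdha11, while that of Pcdha3 is not in that release. Since alpha and gamma isoforms also share constant exons, these 3 values cannot be given to a single isoform, and which exons they cover is not known. RefSeq lists 14 alpha and 22 gamma genes. The symbol pattern found no entry for the others, among them the C-type genes Pcdhac1, Pcdhac2, Pcdhgc3, Pcdhgc4 and Pcdhgc5, so they have no values here.

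The 2 alpha entries had different patterns. Pcdha4 was measured in every group, with means of 2.70 ± 0.673 FPKM (K27M) and 3.11 ± 1.14 (WT-Tag) in tumors, 1.88 ± 0.115 and 1.72 ± 0.0182 in forebrain cultures and 1.64 ± 0.323 and 2.26 ± 0.335 in hindbrain cultures. Pcdha3 had tumor means of 1.43 ± 0.813 (K27M) and 2.03 ± 1.29 (WT-Tag), but the highest of the 12 culture libraries reached 0.133. In tumors Pcdha3 spanned 0.048 to 3.26 FPKM among K27M and 0.750 to 3.96 among WT-Tag tumors.

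All 22 beta genes match their entry in GENCODE M21 by identifier, and their numbers follow their order along the chromosome in RefSeq (GRCm38.p6). Their transcripts are similar but largely distinguishable: a median of 4.26% of the 50-base words of a beta transcript, and at most 12% (Pcdhb12), also occurred in another beta transcript. At 100 bases the median share was 0.207%, and the highest was 7.73% for Pcdhb21, so Pcdhb21 and Pcdhb22 (5.47%) are the least certain to be told apart. How reads with several matches were handled is not stated in the sources used here.

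The summed FPKM of the 22 beta genes was 81.2 ± 24.2 (K27M) and 123 ± 47.4 (WT-Tag) for tumors, 24.1 ± 0.451 and 33.2 ± 5.53 for forebrain cultures and 27.8 ± 5.11 and 36.8 ± 7.31 for hindbrain cultures, K27M first. The lowest tumor, K27M tumor 14 at 43.2, lay above the highest culture at 42.2. The ratio of Pcdhga9 to this sum was 0.132 and 0.0995 in K27M and WT-Tag tumors and between 0.480 and 0.606 in the culture groups, with 0.194 as the highest ratio of a tumor and 0.354 as the lowest of a culture. In bulk samples, fewer cells of a type and less RNA per cell cannot be told apart.

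Position along the beta cluster went with level in cultures. In all 4 culture groups the highest beta gene was Pcdhb22 or, for K27M hindbrain, Pcdhb17, both in the last part of the cluster. Pcdhb22 was at 4.62 ± 0.140 FPKM in WT-Tag hindbrain cultures, followed by Pcdhb19 at 3.48 ± 0.938 and Pcdhb17 at 3.44 ± 0.771. Pcdhb13 was at 0.365 ± 0.140 there and Pcdhb1, the first gene of the cluster, at 0.0133 ± 0.0140. Over the 22 genes, order and mean FPKM had a Spearman rho of 0.76 (K27M) and 0.82 (WT-Tag) for forebrain cultures, and 0.73 and 0.81 for hindbrain. In tumors it was 0.013 and −0.075, and the first 11 genes were about as high as the last 11. Pcdhb12 to Pcdhb22 made up 49.2 ± 3.26% (K27M) and 47.0 ± 5.77% (WT-Tag) of the beta sum of tumors, but 69.7 ± 1.94% and 73.8 ± 1.69% in forebrain and 74.8 ± 2.44% and 75.2 ± 1.52% in hindbrain cultures. The highest tumor value of 55.7% was below the lowest culture value of 68.4%. These coefficients describe genes of the same libraries, which are not independent replicates.

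**Figure D1:**
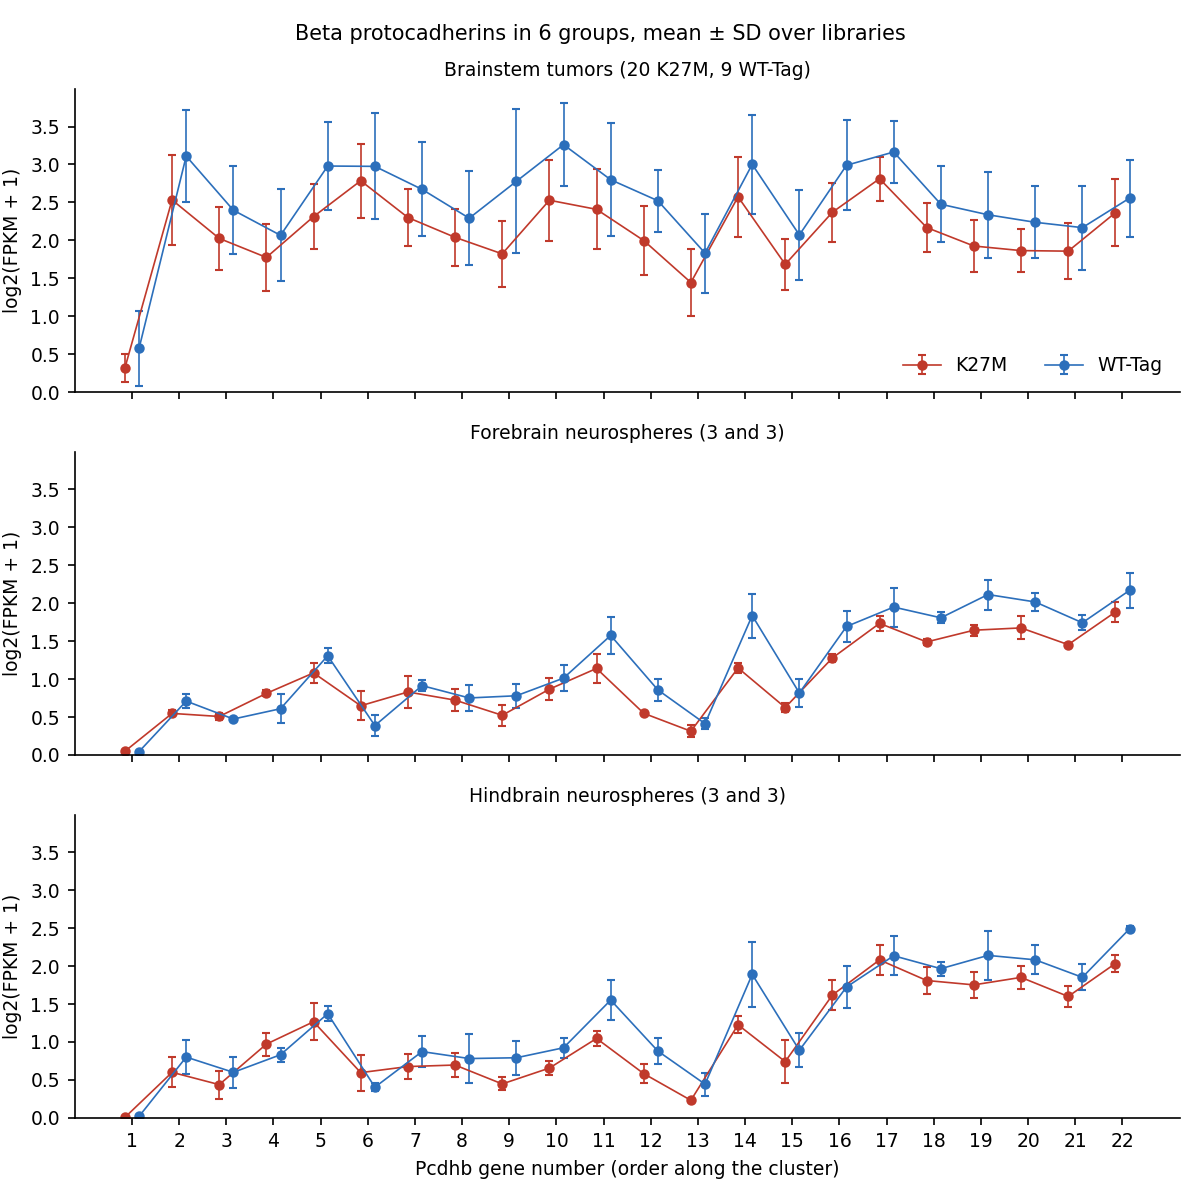
Mean ± SD of log2(FPKM + 1) for Pcdhb1 to Pcdhb22 in order along the cluster, in tumors (20 K27M in red, 9 WT-Tag in blue), forebrain and hindbrain cultures (3 libraries per group). Culture levels climb towards Pcdhb22, with rho between 0.73 and 0.82, and tumor levels do not (0.013 and −0.075).

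The relative use of beta genes was shared by the genotypes. The Spearman rho between K27M and WT-Tag group means over the 22 genes was 0.89 in tumors, 0.93 in forebrain cultures and 0.93 in hindbrain cultures. Forebrain and hindbrain cultures of the same genotype had 0.98 (WT-Tag) and 0.96 (K27M), whereas tumors and hindbrain cultures had 0.20 (WT-Tag) and 0.31 (K27M). All these profiles share gene length and sequence composition. Pcdhb1 stood apart in every group, with means between 0.0040 and 0.591 FPKM, and it was the 1 member that did not reach an FPKM of 1 in at least 9 tumors.

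**Figure D2:**
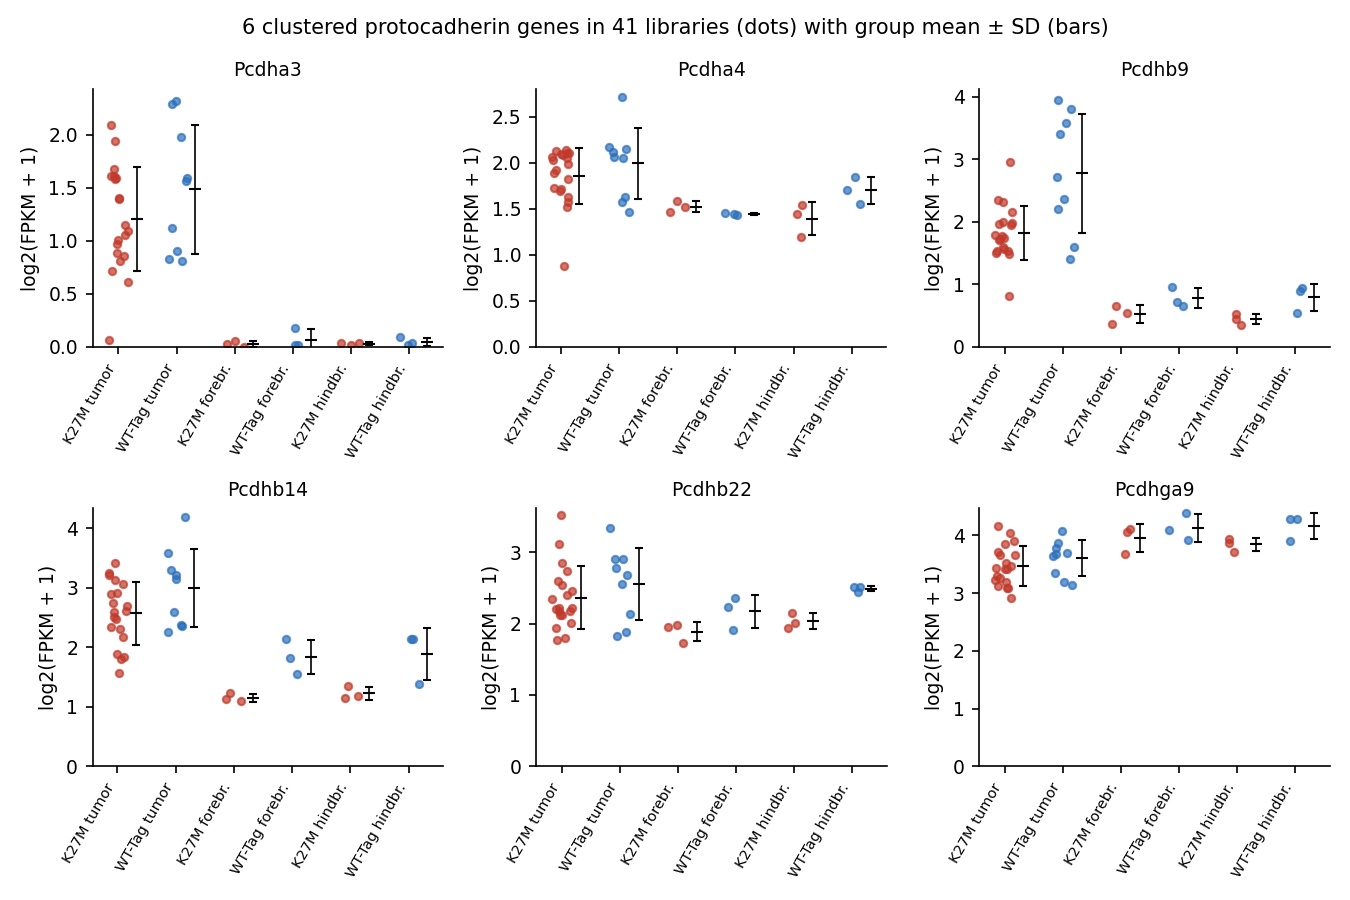
log2(FPKM + 1) of 6 members in the 41 libraries, 1 dot per library (K27M red, WT-Tag blue), with the group mean ± SD as a bar beside the dots. Pcdha3 is near 0 in cultures, Pcdhb9 and Pcdhb14 are higher in tumors, and Pcdhga9 has its highest means in cultures.

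The first comparison asked whether the family differed between tumors of the 2 histone genotypes, which share the receptor and Trp53 alleles. No member passed the test, although every one of the 25 had a lower mean in K27M tumors. The ratio of K27M to WT-Tag mean FPKM had a median of 0.689 over the 25 members and ran from 0.375 for Pcdhb9 to 0.912 for Pcdhga9. Of the 24 members tested with limma, 0 passed an adjusted p of 0.05, where 0.0846% of the 15360 genes tested did. At an unadjusted p below 0.05 there were 12 members, all lower, against 3.63% of all genes lower at that level. The median log2 change of the members was −0.37, beside −0.014 over all genes, and 24 of 24 were negative, beside 53.4% of all genes. Members are genes of the same libraries, and the beta genes went up and down together among tumors, as given below. Counts of members, here and in cultures, thus do not count independent results. The genotypes overlapped for all 25 members, and 0.00% of genes tested lay apart as lower.

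Pcdhb9 had the largest difference. Its K27M values had a mean of 2.70 ± 1.24 FPKM (lowest 0.755, median 2.37, highest 6.77) and its WT-Tag values one of 7.20 ± 4.83 (lowest 1.64, median 5.55, highest 14.4), a log2 change of −0.96 ± 0.24 (SE, limma adjusted p = 0.199). WT-Tag tumors 7, 8, 10 and 28 lay between 9.55 and 14.4, above every K27M tumor, while WT-Tag tumors 9 and 27, at 1.64 and 2.04, lay among the lower K27M tumors. Without WT-Tag tumor 9 the adjusted p was 0.0432, and this was the single omission of 1 tumor out of 29 that gave a member a call.

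Pcdhb10, its neighbour, averaged 5.14 ± 2.14 FPKM with K27M (1.89 to 8.51, median 4.81) and 9.24 ± 4.09 with WT-Tag (4.29 to 17.7, median 8.08), a change of −0.73 ± 0.21 (adjusted p = 0.277). Pcdhb5 was at 4.19 ± 1.57 (2.22 to 7.11, median 3.96) against 7.53 ± 3.92 (3.83 to 16.1, median 6.82), a change of −0.67 ± 0.19 (0.264). Both genes had 18 of 20 K27M tumors below the WT-Tag median. The same count was 19 for Pcdhb9 and 20 for Pcdhb16, Pcdhb17 and Pcdhb19. Pcdhb16 was at 4.35 ± 1.42 against 7.54 ± 3.27 FPKM (−0.62 ± 0.18, adjusted p = 0.304). The 3 beta genes with the highest mean over all libraries were Pcdhb17, Pcdhb14 and Pcdhb6. Pcdhb17 was at 6.16 ± 1.42 against 8.30 ± 2.63, Pcdhb14 at 5.33 ± 2.22 against 7.81 ± 4.33 and Pcdhb6 at 6.28 ± 2.44 against 7.74 ± 4.37, with adjusted p of 0.544, 0.724 and 0.868.

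Pcdha4 and Pcdhga9 had the smallest differences of the 24, while Pcdha3 lay within the range of the beta genes. The log2 change was −0.28 ± 0.21 for Pcdha3 (adjusted p = 0.792), −0.14 ± 0.13 for Pcdha4 (0.842) and −0.13 ± 0.13 for Pcdhga9 (0.849). In the beta cluster the range was −0.96 to −0.19. Without WT-Tag tumors 8 and 9 the median over the 24 members was −0.33, with 24 of 24 negative and 10 at an unadjusted p below 0.05. The shares over all genes in that fit are not given here, so nothing is read from its counts.

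**Figure D3:**
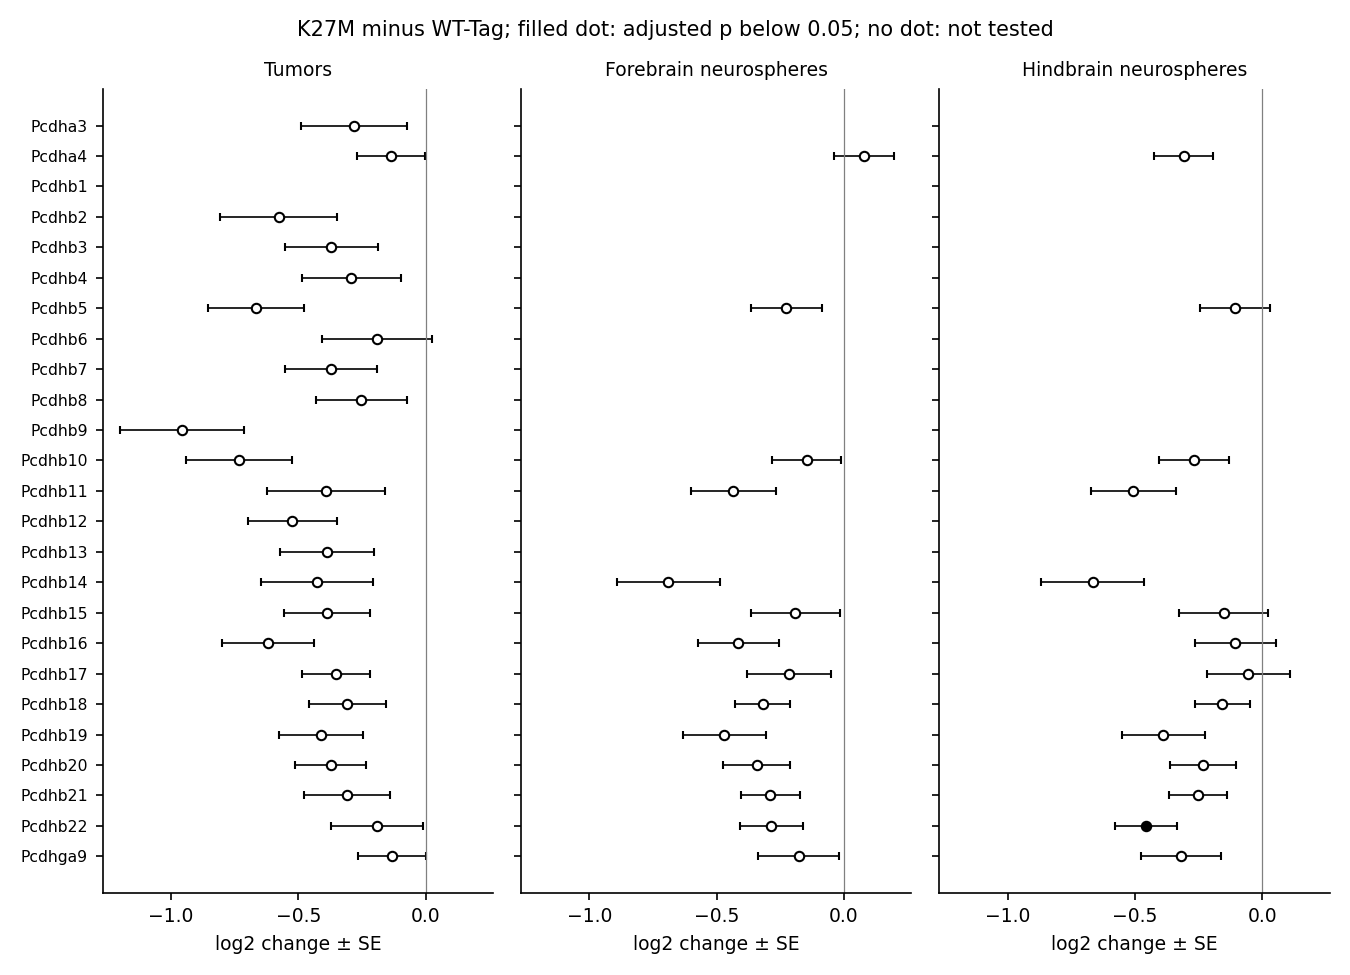
Log2 change ± SE of K27M against WT-Tag for each member in tumors, forebrain cultures and hindbrain cultures; members without a dot did not pass the filter on low values. All 24 tumor values lie left of 0, and the filled dot is Pcdhb22 in hindbrain cultures (−0.46 ± 0.12).

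Levels varied widely among tumors of 1 genotype. Among K27M tumors the beta sum ran from 43.2 to 117 FPKM and among WT-Tag tumors from 55.8 to 196. The beta genes went up and down together: in K27M tumors 14, 16, 21 and 24, 0 of 22 beta genes were above the median of the K27M tumors, and in K27M tumor 6, 22 of 22 were. In WT-Tag tumor 29, 0 of 22 were above the WT-Tag median and in tumor 8 all 22. Each tumor was then given a marker level, the mean z-score of a list of marker genes over the 29 tumors, and the slope of each gene on it was fitted with genotype in the same model. The marker levels were linked. Neuron markers had a median slope of −0.84 on the oligodendrocyte precursor level. On the astrocyte level they had 1.35, where astrocyte markers had 1.20. The slopes on the different levels are therefore not separate results.

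On the oligodendrocyte precursor level (14 markers such as Cspg4, Olig2 and Sox10), 24 of 24 members had a positive slope and 8 passed the test as higher, where 11.6% of all genes did. Pcdhb2 rose by 0.58 ± 0.10 log2 units per unit of marker level (adjusted p = 0.000564), Pcdhb10 by 0.52 ± 0.09 (0.000566) and Pcdhb14 by 0.48 ± 0.11 (0.00436). Pcdhb3, Pcdhb4, Pcdhb5, Pcdhb6 and Pcdhga9 also passed, with slopes between 0.25 and 0.38. Beside the members, 60.3% of all genes had a positive slope. After quantile normalization 3 members passed, where 5.68% of all genes did.

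On the neuron level (19 markers measured, such as Rbfox3, Snap25 and Syt1), the slopes went the other way. Of 24 members 23 were negative, beside 59.0% of all genes, and 9 passed as lower, where 27.9% of all genes did, so the share of members called was near that of all genes. Pcdhb2 fell by 0.37 ± 0.10 (adjusted p = 0.00341), Pcdhb6 by 0.34 ± 0.09 (0.0038) and Pcdhb10 by 0.34 ± 0.09 (0.00246). Pcdhga9 fell by 0.18 ± 0.06 (0.0162). Pcdha4 was the member with a positive slope (0.08 ± 0.07, adjusted p = 0.366). On the astrocyte level (14 markers such as Gfap and Aqp4) 4 members passed as lower, Pcdhb6 (−0.40 ± 0.11), Pcdhb2 (−0.35), Pcdhb10 (−0.33) and Pcdhb5 (−0.30), where 25% of all genes did. On this level 21 of 24 slopes were negative, beside 56.5% of all genes. Single tumors moved these counts: on the neuron level 5 members passed without K27M tumor 1 or WT-Tag tumor 28, on the precursor level 5 without K27M tumor 16 or 23, and on the astrocyte level 1 without WT-Tag tumor 28, 7 without WT-Tag tumor 9 and 8 without K27M tumor 14. Without both tumors 8 and 9, 7 passed on the astrocyte level. The shares over all genes with tumors left out are not given here, so these counts show only how far the calls moved.

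**Figure D4:**
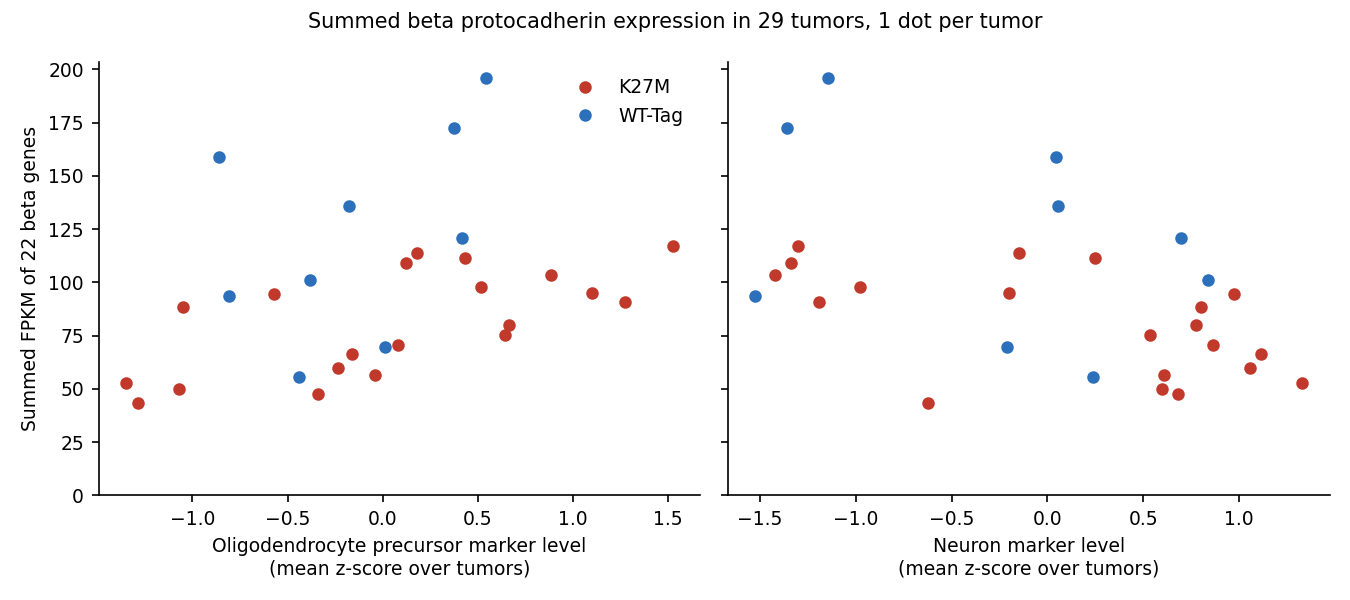
Summed FPKM of the 22 beta genes in each of 29 tumors (20 K27M red, 9 WT-Tag blue) against the oligodendrocyte precursor marker level and the neuron marker level, both as a mean z-score over tumors. The 4 lowest K27M tumors, at 43.2 to 52.8, have precursor levels between −1.35 and −0.34.

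No marker of these cell types passed the test between genotypes in tumors, and their levels stand beside the protocadherin values as follows. In K27M tumors the summed FPKM of the neuron markers ran from 106 to 1418 (median 693) and in WT-Tag tumors from 90.0 to 825 (median 387), and 19 of 19 markers had a positive log2 change with a median of 0.47, of which 0 passed. For astrocytes 13 of 14 were positive (median 0.39; sums of 313 to 1924 and 161 to 1747), for mature oligodendrocytes 13 of 13 (0.55; 671 to 1897 and 365 to 1773) and for oligodendrocyte precursors 9 of 14 (0.17; 408 to 2048 and 692 to 1257), again with 0 passing. None of these lists had a marker at 0 in every tumor. Fits with a marker level beside genotype were chosen after seeing the data, and they only describe the values. In them the median change of the 24 members was −0.31 with the neuron level, −0.32 with the astrocyte level and −0.42 with the oligodendrocyte precursor level. In each, 24 of 24 were negative. With the precursor level Pcdhb10 passed as lower in K27M tumors (−0.84 ± 0.15, adjusted p = 0.00758). The share of all genes passing in that fit is not given here, so nothing is read from this call. The marker levels come from the same bulk tumors, and whether cell makeup takes part in the difference was not tested.

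In forebrain cultures the question was whether K27M went with other levels of the family in progenitors without the tumor alleles. Of the 25 members 20 had a lower mean in K27M cultures and 5 a higher one, with a median ratio of K27M to WT-Tag of 0.740. A minimum FPKM of 1 in 3 or more of the 12 cultures was met by 14 members, and 11 were not tested. Pcdhb10 and Pcdhb15 passed it with under 3 K27M libraries at 1 or more, so their counts as lower carry less weight. Among the 14, 13 had a negative log2 change, beside 40.8% of all genes. Of them 0 passed the adjusted test, where 0.356% of 13190 genes did. At an unadjusted p below 0.05 there were 8, all lower, where 5.63% of genes were lower at that level. Over all 25 members the 3 K27M libraries lay below the 3 WT-Tag libraries for 11, 8 of them among the 14 tested, where 9.84% of the genes tested did. Pcdha4 lay apart as higher, where 15% of genes did.

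Pcdhb14 had the largest difference in forebrain cultures. Its K27M values were 1.34, 1.13 and 1.18 FPKM in experiments 1, 2 and 3, and its WT-Tag values 1.95, 3.40 and 2.52. The groups did not overlap, with a log2 change of −0.69 ± 0.20 (adjusted p = 0.188). Pcdhb19 was at 1.95, 2.23 and 2.21 in K27M and 2.71, 3.53 and 3.83 in WT-Tag cultures, also apart (−0.47 ± 0.16, 0.248). Pcdhb11 was at 1.52, 1.18 and 0.951 against 1.87, 2.59 and 1.57 (−0.43 ± 0.17, 0.303). Pcdhb6, which did not pass the filter, went the other way, with 0.587, 0.364 and 0.780 in K27M and 0.172, 0.424 and 0.341 in WT-Tag cultures, and the groups overlapped.

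In hindbrain cultures 23 of the 25 members had a lower mean with K27M and 2, Pcdhb4 and Pcdhb6, a higher one, with a median ratio of 0.716. The test called 1 beta gene as lower, Pcdhb22, the last of the cluster. It was at 2.83, 3.03 and 3.45 FPKM in K27M and 4.46, 4.70 and 4.71 in WT-Tag cultures. All 3 K27M values lay below the WT-Tag values, with a log2 change of −0.46 ± 0.12 (adjusted p = 0.0337). Of 14 members tested it was the 1 called lower, where 5.13% of all genes were lower and 13.5% changed in either direction. The share of members called was thus near that of all genes. All 14 had a negative log2 change, beside 37.7% of genes. Pcdhb10 and Pcdhb15, which met the filter mostly through WT-Tag libraries, are among the 14, and their lower values carry less weight. The call was lost in a fit on hindbrain libraries alone (0.0819), with no filter (0.0839), without experiment 3 (0.187) and without K27M hindbrain 1 (0.123) or 2 (0.0886), WT-Tag hindbrain 2 (0.102) or 3 (0.0986) or WT-Tag forebrain 3 (0.0517).

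Pcdhb14 was again low with K27M, at 1.21, 1.28 and 1.55 FPKM against 1.62, 3.42 and 3.40. The groups were apart, but WT-Tag hindbrain 1 lay next to the K27M values, and the log2 change was −0.66 ± 0.20 (adjusted p = 0.0515). Pcdhb11 was at 0.971, 1.00 and 1.24 against 1.38, 2.33 and 2.18 (−0.51 ± 0.17, 0.0684). Without WT-Tag hindbrain 1, 6 of 14 members passed as lower, where 8.6% of all genes did, among them Pcdhb14 (−0.91, adjusted p = 0.00235) and Pcdhb11 (−0.66, 0.0126). With the experiment id as a block, which pairs genotypes of the same experiment, 2 of 14 members passed as lower, where 5.94% of genes did, Pcdhb22 and Pcdhb14 (−0.66, adjusted p = 0.0344). At an unadjusted p below 0.05 there were 6 members in the main comparison, all lower, where 10.5% of genes were. Groups lay apart as lower for 8 of the 25 members, 5 of them among the 14 tested, where 11.1% of genes did. These 5 include Pcdhb10, which met the filter through WT-Tag libraries alone.

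Markers of glial cells moved in the same direction in hindbrain cultures. Of the astrocyte list 9 of 13 tested genes were lower with K27M, of the oligodendrocyte precursor list 6 of 12 and of the mature oligodendrocyte list 3 of 7, with medians of −1.22, −0.76 and −1.26. Of all genes tested 5.13% were lower. The summed astrocyte markers were 374 to 416 FPKM in K27M and 685 to 929 in WT-Tag hindbrain cultures, and 500 to 603 against 705 to 1026 in forebrain cultures. Gfap, an astrocyte filament protein, was at 0.131 ± 0.0406 in K27M and 6.62 ± 5.13 in WT-Tag hindbrain cultures. Summed precursor markers were 543 to 612 against 638 to 807 in hindbrain and 519 to 665 against 584 to 666 in forebrain cultures. Whether this took part in the lower protocadherin values was not tested.

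No member passed the test of whether the K27M difference itself differed between the 2 regions. That test of hindbrain minus forebrain effect gave 0 calls in 14, where 0.0379% of all genes passed, and 1 member at an unadjusted p below 0.05, where 6.30% of genes did. That member was Pcdha4, with K27M values of 1.77, 2.00 and 1.87 FPKM in forebrain, all above the WT-Tag values of 1.73, 1.70 and 1.74. In hindbrain its K27M values of 1.72, 1.92 and 1.29 were all below the WT-Tag values of 1.93, 2.60 and 2.26. Its log2 changes were 0.08 ± 0.12 and −0.31 ± 0.12, and their difference of −0.39 had an adjusted p of 0.759. Pcdhb16 had the largest difference in the other direction (0.31, adjusted p = 0.961). Between regions, 0 of 14 members passed in WT-Tag cultures, where 1.82% of all genes did, and 0 of 14 in K27M cultures, where 7.92% did, with 2 and 1 members at an unadjusted p below 0.05, where 10.8% and 21.8% of genes did. Libraries of the regions lay apart as higher in hindbrain for Pcdha4 and Pcdhb22 with WT-Tag, where 5.99% of genes did, and for Pcdhb16, Pcdhb17, Pcdhb18 and Pcdhb21 with K27M, where 16.6% did. With K27M, Pcdhb1 and Pcdhb13, which were not tested, lay apart as lower in hindbrain, but at low values. Pcdhb1 was at 0 to 0.012 FPKM in hindbrain and 0.021 to 0.041 in forebrain cultures. Pcdhb13 was at 0.162 to 0.188 and 0.189 to 0.324, so nothing is read from either gene. The largest values were those of Pcdhb22 in WT-Tag cultures (0.32 ± 0.12 higher in hindbrain, adjusted p = 0.326) and Pcdhb17 in K27M cultures (0.35 ± 0.16, 0.25).

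Tumors were then set against hindbrain cultures of the same genotype. In both genotypes, 24 of the 25 members had a higher mean in tumors, all but Pcdhga9. Of the 14 members that also passed the filter in cultures, 8 were higher in K27M and 7 in WT-Tag tumors, where 33.1% and 28.9% of all 16803 genes tested were. Pcdhb5, Pcdhb10, Pcdhb11 and Pcdhb14 to Pcdhb17 rose in both genotypes and Pcdha4 rose with K27M, while Pcdhb18 to Pcdhb22 did not pass in either. The other 10 members tested, Pcdha3, Pcdhb2 to Pcdhb4, Pcdhb6 to Pcdhb9, Pcdhb12 and Pcdhb13, entered the test through tumors alone, so the filter itself favoured a higher value there. With these 10 included, 18 of 24 were higher with K27M and 17 with WT-Tag. With K27M 0 members were lower, where 26.5% of genes were, and with WT-Tag Pcdhga9 was, where 17.4% were. Tumors and hindbrain cultures lay apart, with tumors higher, for 14 of 25 members with K27M and 16 with WT-Tag, where 20.6% and 20.3% of the genes tested did. Since the 10 are in the counts over 24 and 25 members, nothing is read from those counts.

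Among the 14, Pcdhb10 rose most, from 0.577 ± 0.0955 to 5.14 ± 2.14 FPKM with K27M (log2 change 1.87 ± 0.29, adjusted p = 1.15e-06) and from 0.902 ± 0.168 to 9.24 ± 4.09 with WT-Tag (2.34 ± 0.31, 1.62e-07). It had met the minimum in cultures through 3 WT-Tag libraries and no K27M library. Pcdhb14 rose by 1.35 ± 0.31 and 1.11 ± 0.33, Pcdhb5 by 1.05 ± 0.26 and 1.61 ± 0.28 and Pcdhb17 by 0.73 ± 0.19 and 1.03 ± 0.21. Of the members that entered through tumors alone, Pcdhb6 went from 0.525 ± 0.253 FPKM in cultures to 6.28 ± 2.44 in tumors with K27M and from 0.324 ± 0.0453 to 7.74 ± 4.37 with WT-Tag. Pcdha3 went from 0.0223 ± 0.00764 to 1.43 ± 0.813 and from 0.0347 ± 0.0266 to 2.03 ± 1.29. At the far end of the cluster Pcdhb20 was at 2.62 ± 0.397 in cultures and 2.71 ± 0.718 in tumors with K27M, a change of 0.014 ± 0.20 (adjusted p = 0.956), and at 3.26 ± 0.585 and 3.95 ± 1.66 with WT-Tag (0.16 ± 0.21, 0.563). Order along the cluster was also set against the log2 ratio of tumor to culture means, with 1 FPKM added to each mean. Over the 22 genes the Spearman rho was −0.61 with K27M and −0.71 with WT-Tag. These include Pcdhb1, which was not tested, and the genes that entered through tumors alone. This rho restates the order given above for cultures and tumors and is not a separate result. The gamma entry Pcdhga9 fell by 0.56 ± 0.21 in WT-Tag tumors (adjusted p = 0.0247), a call lost without WT-Tag hindbrain 1 (0.110) or 3 (0.101), and had −0.37 ± 0.19 with K27M (0.0895).

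**Figure D5:**
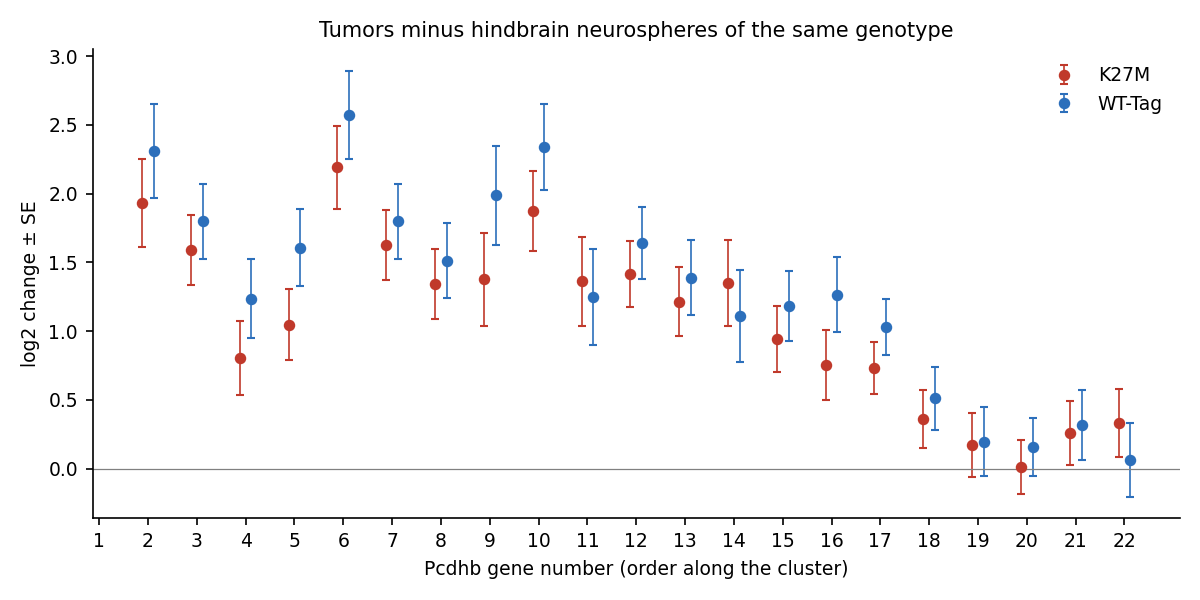
Log2 change ± SE of tumors against hindbrain cultures of the same genotype (K27M red, WT-Tag blue) for the 21 beta genes tested, in order along the cluster. Pcdhb6, which entered through tumors alone, is highest (2.19 and 2.57), and Pcdhb18 to Pcdhb22 lie between 0.014 and 0.51.

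Scaling moved these values. The median change over all genes was 0.10 with K27M and 0.16 with WT-Tag, and −0.065 and −0.061 after quantile normalization, which left 4 and 5 of the 14 members higher, and 12 and 14 of all 24, where 24.7% and 18.3% of genes were. There, 6 members were negative in each genotype: Pcdha4, Pcdhb19, Pcdhb20, Pcdhb21 and Pcdhga9 in both, Pcdhb18 with K27M and Pcdhb22 with WT-Tag. Pcdhb10 was among those past the threshold in both genotypes (1.35 and 1.88). Tumor pieces and cultures also differ in the cells they hold. Summed neuron markers were 106 to 1418 FPKM in K27M tumors and 30.2 to 39.4 in K27M hindbrain cultures, microglia and macrophage markers 249 to 859 against 13.8 to 21.1, endothelial markers 30.0 to 77.8 against 1.23 to 1.63 and progenitor markers 159 to 1047 against 2171 to 2284. In K27M hindbrain cultures 1 gene each of the microglial, endothelial and mature oligodendrocyte lists was at 0 in every library. Growth in culture, embryonic source, tumor alleles and host cells differ between these groups all at the same time and cannot be told apart.

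No regulator of promoter choice passed the test between genotypes. Of 18 genes listed (CTCF, cohesin subunits and loaders, DNA methyltransferases, Smchd1 and others) 17 were tested, and 0 passed for K27M against WT-Tag in tumors, forebrain or hindbrain cultures, with medians of −0.082, 0.13 and 0.13. Of all genes tested, 0.0846%, 0.356% and 13.5% passed there. At an unadjusted p below 0.05 were the cohesin regulator genes Pds5a (−0.34) and Pds5b (−0.33) in tumors, Stag1 (0.23) in forebrain and Smc1a (0.38) and Rest (0.23) in hindbrain cultures. Ctcf had means of 15.8 ± 3.14 FPKM (K27M) and 15.9 ± 2.87 (WT-Tag) in tumors, 30.3 ± 2.02 and 26.2 ± 1.53 in forebrain and 26.6 ± 2.49 and 24.2 ± 2.37 in hindbrain cultures. Against hindbrain cultures 14 of 17 regulators were lower in tumors with K27M and 4 with WT-Tag, where 26.5% and 17.4% of all genes were. Ctcf fell by 0.73 ± 0.15 and 0.59 ± 0.16, and the cohesin subunit Smc1a by 1.25 ± 0.17 and 0.86 ± 0.18. After quantile normalization 12 and 5 were lower.

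Of 15 partner and signalling genes, which include the kinases and the WAVE complex that protocadherin tails bind, 0 passed in tumors or forebrain cultures. In hindbrain cultures Ptk2, which encodes focal adhesion kinase, rose by 0.57 ± 0.14 (adjusted p = 0.0244). It was the 1 call in 13, where 13.5% of all genes changed in either direction. After quantile normalization 3 others were lower. Ptk2 fell in tumors against hindbrain cultures (−1.19 ± 0.16 with K27M, −0.62 ± 0.17 with WT-Tag), while Cyfip2, a WAVE complex subunit enriched in neurons, rose (3.00 ± 0.21 and 2.07 ± 0.23). In all, 4 of 15 partners were higher and 4 lower with K27M, where 33.1% and 26.5% of all genes were. With WT-Tag 3 were higher and 3 lower, where 28.9% and 17.4% of all genes were.

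Non-clustered protocadherins, which lie outside the 3 clusters, changed in hindbrain cultures. Of 9 tested, 5 were lower and 1 higher with K27M, where 5.13% of all genes were lower and 13.5% changed in either direction. Pcdh11x fell by 1.38 ± 0.20 (2.76 ± 0.231 against 9.16 ± 3.31 FPKM, adjusted p = 0.00307), and Pcdh10 (−0.86), Pcdh9 (−1.09), Pcdh19 (−0.72) and Pcdh17 (−0.85) fell too, while Pcdh18 rose by 0.75 ± 0.14 (0.00905). In forebrain cultures 0 of 9 and in tumors 0 of 11 passed, with medians of −0.13 and 0.11. In tumors the lowest p was that of Pcdh8, with 2.69 ± 1.32 against 1.01 ± 0.594 FPKM (0.84 ± 0.19, adjusted p = 0.103). Genes that neighbour the clusters, among them Taf7 and Slc25a2 between the beta and gamma clusters, had 0 calls in 8 in each K27M comparison, with medians of −0.099, 0.12 and 0.14. Taf7 fell in tumors against hindbrain cultures, by 1.67 ± 0.20 with K27M and 1.45 ± 0.21 with WT-Tag. Of 9 neighbours 5 were lower there with K27M and 4 with WT-Tag, where 26.5% and 17.4% of all genes were. In each genotype 1 was higher, where 33.1% and 28.9% of all genes were.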

How the data were processed

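RNA was extracted with Trizol and libraries were made with a stranded total RNA kit, as the extract protocol in the labels says. Per the submitters' processing notes the tools were CASAVA, TopHat2 and STAR and the build mm9, with no version or role. The sources used here do not name the program or annotation that counted fragments. Values in the deposited table are FPKM, computed by the authors and used here as log2(FPKM + 1), on which the fold of low genes is understated. The depth behind each value is known only in relative terms, from the low values of 5103 genes.

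The test was limma's (version 3.58.1, R 4.3.3) with a mean-variance trend, 2-sided, with Benjamini-Hochberg adjustment over all genes tested and a threshold of 0.05, and every adjusted p is limma's. One fit held the tumors (genes reaching 1 FPKM in 9 or more), another the cultures as 4 groups (3 or more) and another all 41 libraries as 6 groups (3 or more). Alternatives were another pseudocount, no filter, quantile normalization, a sex term, blocks, marker terms and omitted libraries. Scripts were tested on simulated data. Nothing in the labels says that the libraries of a group came from separate animals, so p-values measure the spread between these samples.

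Lists were neurons, astrocytes, oligodendrocyte precursors, mature oligodendrocytes, microglia and macrophages, endothelium, neural stem and progenitor cells, forebrain and hindbrain identity, regulators, partners, non-clustered protocadherins and neighbours. In tumors microglial markers had 1 of 12 positive changes for K27M against WT-Tag (median −0.16), endothelial markers 9 of 10 (0.10), progenitor markers 4 of 11 (−0.09) and hindbrain markers 3 of 7 (−0.042, with 1 lower call); 4 of 4 forebrain markers were lower in hindbrain than forebrain cultures. Named members were those past the threshold for K27M, the 3 highest per cluster and the 3 with the largest log2 change per comparison and direction. The rule also named the C-type genes, for which no entry was found. Others were chosen after their values were seen. The members and lists were chosen with earlier results of these data known.

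Experiment ids mark a shared experiment in the labels and so pair the cultures. The deviations of same-numbered K27M and WT-Tag cultures from their group means correlated over genes at 0.44, −0.23 and 0.35 in forebrain and 0.41, 0.15 and 0.44 in hindbrain, and those of forebrain and hindbrain libraries of a culture letter from −0.047 to 0.71. No genome coordinates or sequences are printed. Results on some listed genes are not reported here.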

Additional observations from a re-analysis of the deposited data

Results flagged for a closer look

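Pcdhb1 in WT-Tag tumor 26 stood far from the other WT-Tag tumors. It was at 2.57 FPKM there, with the next at 0.547 and the lowest at 0.184, and on the log2(FPKM + 1) scale this gap took up a share of 0.758 of the range of the group. The highest of the 20 K27M tumors was at 0.643. The beta sum of tumor 26, 121 FPKM, was the median of its group. In 26 such groups of values, this was the 1 that stood apart, and chance gives about 1 in 20.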

How the results depend on the processing

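Counts called over all members tested were within 1.5 times of those reported under 214 of the alternatives run. Of the 14 members that also passed the filter in cultures, 8 were higher in K27M tumors than in K27M hindbrain cultures, and 4 after quantile normalization. The exceptions in the counts over all members tested follow. In tumors 1 member was called lower with the oligodendrocyte precursor level as a term (chosen after seeing the data), and 0 to 1 when 1 tumor was left out. On the neuron level 5 passed with no filter and 5 to 11 with 1 tumor left out, on the precursor level 3 after quantile normalization and 5 to 9, and on the astrocyte level 7 without tumors 8 and 9 and 1 to 8. In forebrain cultures 0 to 1 passed with 1 library left out. Pcdhb14 passed there without WT-Tag hindbrain 1 (adjusted p = 0.0471), a library outside that comparison, and its log2 change of −0.69 was unchanged. In hindbrain cultures 2 passed with a pseudocount of 0.1, 2 after quantile normalization, 2 with the experiment id as a replicate block, 0 with no filter, 0 without experiment 3, 0 on hindbrain libraries alone and 0 to 6 with 1 library left out. The block by experiment id or culture letter changed no other call. Shares over all genes are given above for some of these alternatives only. A count without such a share shows only how far the calls moved.

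Among named members, the sign turned only where the value was near 0. Pcdhb11 between regions in WT-Tag cultures ran from −0.13 to 0.13, with 0.11 without WT-Tag forebrain 2 and 0.13 without WT-Tag hindbrain 1. On the astrocyte level Pcdhb15 had −0.026 after quantile normalization and −0.059 without tumors 8 and 9, and ran from −0.078 (without WT-Tag tumor 9) to 0.045 with 1 tumor left out, with −0.032 without K27M tumor 14, −0.011 without K27M tumor 2 and −0.059 without WT-Tag tumor 10. Pcdhb8 had −0.065 without tumors 8 and 9, and ran from −0.088 (without WT-Tag tumor 9) to 0.093, with −0.011 without WT-Tag tumor 10. The cause of these changes was not tested.

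With 3 libraries per culture group and 11 members below the filter there, the cultures limit what can be said of the low beta genes. The values of the alpha and gamma entries cannot be divided among isoforms, and depth, which was lower for K27M, limits values near 0.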
